A study of Mus musculus with 8 samples.

Results

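Genes of myeloid growth factor and interleukin signalling were followed across sorted mesenchymal cells of the mouse liver. The 10 members were picked by symbol from the 30395 gene identifiers listed in each library: the ligands Il34, Csf1, Kitl, Il6, Lif, Il33 and Ltb, and the receptors Osmr, Il6st and Il1r1. All 10 passed the filter on low values that left 16446 genes for testing. The 4 groups compared held 2 libraries each: Gli1+ peribiliary mesenchymal cells on day 5 of bile duct ligation (BDL, in which the bile duct is tied off), the same cells from uninjured liver, stellate cells on day 5 of BDL, and stellate cells from uninjured liver. All mice, the uninjured ones included, were 8 weeks old, of a mixed background of C57BL/6 and SWR/J, and carried Gli1:CreER+/- with Ai9+/-, so that a tamoxifen-inducible Cre expressed by the Gli1 locus can switch on a fluorescent reporter. The sources used here give neither the sort gates nor whether animals were pooled. The labels number the libraries of a group 1 and 2 without saying that they came from separate animals, so each p-value measures only how far these libraries differ, and that spread may be technical.

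Cells of the liver mesenchyme make proteins that keep resident macrophages alive and that carry alarm signals between damaged tissue and immune cells. IL-34 and CSF-1 are unrelated in sequence but bind the same receptor, CSF1R, on which Kupffer cells, the macrophages of the liver sinusoid, depend. IL-6, LIF and oncostatin M form a family whose receptors share the chain gp130 (Il6st) and signal through JAK kinases and STAT3. IL-33 and IL-1 are cytokines of another family that act through the adaptor MyD88.

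Values are CPM, reads of a gene scaled to a common library size. Library totals ranged from 11261775 to 19180370 reads, so that 3 reads corresponded to 0.156 to 0.266 CPM. Gli1 was read at 2.39 to 14.9 CPM in the 4 Gli1+ libraries, against 0 to 0.0584 CPM in the 4 stellate libraries. Lrat, which esterifies retinol for storage, ranged over 5.16 to 35.9 CPM across the Gli1+ libraries, against 1832 to 2784 CPM across the stellate libraries. Libraries of both sorts held RNA of other cells. The 18 markers of macrophages and Kupffer cells summed to 2259 to 4333 CPM in Gli1+ libraries, and to 13706 CPM in uninjured stellate replicate 1 but 82.6 CPM in uninjured stellate replicate 2. The 12 mesothelial markers summed to 3711 to 12403 CPM in Gli1+ libraries, against 4.83 to 25.8 CPM in stellate libraries. The 14 cholangiocyte markers summed to 4250 to 19834 CPM in Gli1+ libraries, against 4.85 to 832 CPM in stellate libraries. Krt19, at 1023 to 2559 CPM in Gli1+ libraries, is in both the mesothelial and the cholangiocyte list, so these sums are not separate. In bulk libraries of this kind, fewer cells of a type and less RNA per cell cannot be told apart.

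Promoter windows of RefSeq (build GRCm38.p6) were matched for 9 of the 10 members, with 11 windows of 250 bases before an annotated start site. They were searched on both strands for AP-1 (TGANTCA), STAT (TTCNNNGAA) and NF-kB (GGG, any 2 bases, TTTCC) letters, motifs of factors that act downstream of cytokine receptors. The windows of Il6, Lif, Csf1 and Ltb are shown because they are the 4 that held a match, which the capitals mark. Il6 is read on chr5:30012864-30013113, plus strand, with an AP-1 match followed by an NF-kB match 44 to 35 bases before the start site.
Il6: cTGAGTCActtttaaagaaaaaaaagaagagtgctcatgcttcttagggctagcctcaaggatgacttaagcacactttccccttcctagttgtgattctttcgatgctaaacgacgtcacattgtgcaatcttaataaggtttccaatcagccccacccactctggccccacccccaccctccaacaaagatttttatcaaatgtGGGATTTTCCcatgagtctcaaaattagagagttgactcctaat
Lif is read on chr11:4257318-4257567, plus strand, with 1 AP-1 match.
Lif: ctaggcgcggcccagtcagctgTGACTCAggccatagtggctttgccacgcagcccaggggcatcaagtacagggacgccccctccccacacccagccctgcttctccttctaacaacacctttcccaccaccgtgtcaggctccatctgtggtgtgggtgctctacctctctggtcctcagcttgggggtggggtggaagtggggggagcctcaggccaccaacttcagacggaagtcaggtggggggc
Csf1 is read on chr3:107760470-107760719, minus strand, with 1 NF-kB match.
Csf1: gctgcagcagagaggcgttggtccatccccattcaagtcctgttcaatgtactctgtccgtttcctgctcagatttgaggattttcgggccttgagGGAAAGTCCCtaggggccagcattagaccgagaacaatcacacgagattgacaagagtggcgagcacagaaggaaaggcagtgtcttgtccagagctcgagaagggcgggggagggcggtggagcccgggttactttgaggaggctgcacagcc
Ltb is read on chr17:35194257-35194506, plus strand, with a STAT match followed by an NF-kB match.
Ltb: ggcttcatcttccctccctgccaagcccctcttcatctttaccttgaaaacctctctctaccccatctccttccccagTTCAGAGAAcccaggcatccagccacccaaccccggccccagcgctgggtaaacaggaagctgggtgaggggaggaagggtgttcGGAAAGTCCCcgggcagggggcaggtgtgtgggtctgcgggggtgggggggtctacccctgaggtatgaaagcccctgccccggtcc
Of the 32851 promoter windows in the RefSeq table, 6.75% held the AP-1 letters, 7.02% the STAT letters and 1.41% the NF-kB letters in these 250 bases. A match describes the letters only.

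Of the 10 members, Il34, a ligand of CSF1R, had the largest log2 fold change between the populations in both conditions. It was abundant in stellate cells and near 0 in uninjured Gli1+ cells. Il34 (ENSMUSG00000031750.15, chr8:110741829-110805924, minus strand, GRCm38) had 0.533 and 0.0571 CPM in uninjured Gli1+ cells, which is 6 and 1 reads, against 224 and 291 CPM in the uninjured stellate libraries. After BDL it was read at 20.9 and 1.5 CPM in Gli1+ cells, against 180 and 213 CPM in stellate cells. Every stellate library stood above every Gli1+ library, and the highest Gli1+ value belonged to replicate 1 after BDL. Group means of uninjured cells were 0.295 ± 0.336 CPM in Gli1+ cells, against 257 ± 47.0 CPM in stellate cells (SD, n = 2), 873-fold higher in stellate cells.

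The log2 fold change of Il34 between Gli1+ and stellate cells was -7.65 ± 0.89 (SE) in uninjured liver and -4.73 ± 0.89 after BDL (limma, Benjamini-Hochberg adjusted p = 0.00142 and 0.0164). In uninjured liver it passed without any 1 of the 8 libraries, and with edgeR (adjusted p = 0.00721), but not when only the 4 uninjured libraries were fitted (limma adjusted p = 0.106), where no gene passed. After BDL it did not pass without stellate BDL replicate 1 (limma adjusted p = 0.135) or replicate 2 (0.141), nor with edgeR (0.0871). DESeq2 called Il34 in both conditions (adjusted p = 6.08e-18 in uninjured liver and 0.000205 after BDL). The 18 stellate markers summed to 1466 and 1622 CPM in the Gli1+ libraries after BDL, where Il34 differed between the replicates, against 31784 and 27893 CPM in the stellate libraries after BDL. In uninjured liver the same sums were 2468 and 1611 CPM in Gli1+ libraries and 48809 and 73046 CPM in stellate libraries. Their part in the result was not tested. Exons of Il34 overlap the antisense genes Gm15894 and Gm15895, each listed at no more than 5.14 CPM in any library. Since the sources used here do not state the strand setting of the counting, reads of these genes and of Il34 cannot be told apart.

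Csf1 (ENSMUSG00000014599.10, chr3:107741048-107760469, minus strand) was read in all libraries, and within each condition the Gli1+ libraries had the lower values. It had 116 and 224 CPM in uninjured Gli1+ libraries, against 311 and 407 CPM in uninjured stellate libraries. After BDL it had 78.5 and 116 CPM in Gli1+ libraries, against 211 and 303 CPM in stellate libraries. The groups did not overlap in either comparison, but neither difference passed by limma, with log2 fold changes of -1.14 ± 0.41 and -1.40 ± 0.41 (SE; limma adjusted p = 0.123 and 0.0847). The 95% intervals ran from -2.06 to -0.21 and from -2.32 to -0.47. DESeq2 called the difference after BDL (adjusted p = 0.0335), and edgeR did not (0.147).

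Per kb of merged exon length, a scaling used to compare genes, the order of the CSF1R ligands differed between the populations. In CPM without this scaling Csf1 stood above Il34 in every library. The order in stellate cells thus rests on the merged lengths, 1959 bases for Il34 and 5281 bases for Csf1. Which transcripts of each gene were expressed, and so their true lengths, was not tested. In uninjured Gli1+ cells Il34 averaged 0.151 CPM per kb and Csf1 32.2 CPM per kb, whereas in uninjured stellate cells Il34 averaged 131 and Csf1 68.0 CPM per kb. After BDL the means were 5.71 for Il34 and 18.4 for Csf1 in Gli1+ cells, and 100.2 for Il34 and 48.6 for Csf1 in stellate cells, again in CPM per kb. Il34 stood above Csf1 in 0 of 4 Gli1+ libraries and in 4 of 4 stellate libraries. The ratio of Il34 to Csf1 per kb was 0.000685 to 0.717 in Gli1+ libraries and 1.90 to 2.30 in stellate libraries. The receptor itself, Csf1r, is a macrophage marker here, so its values are part of the macrophage sums. It had 656 CPM in uninjured stellate replicate 1 and 5.47 CPM in replicate 2.

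**Figure D1:**
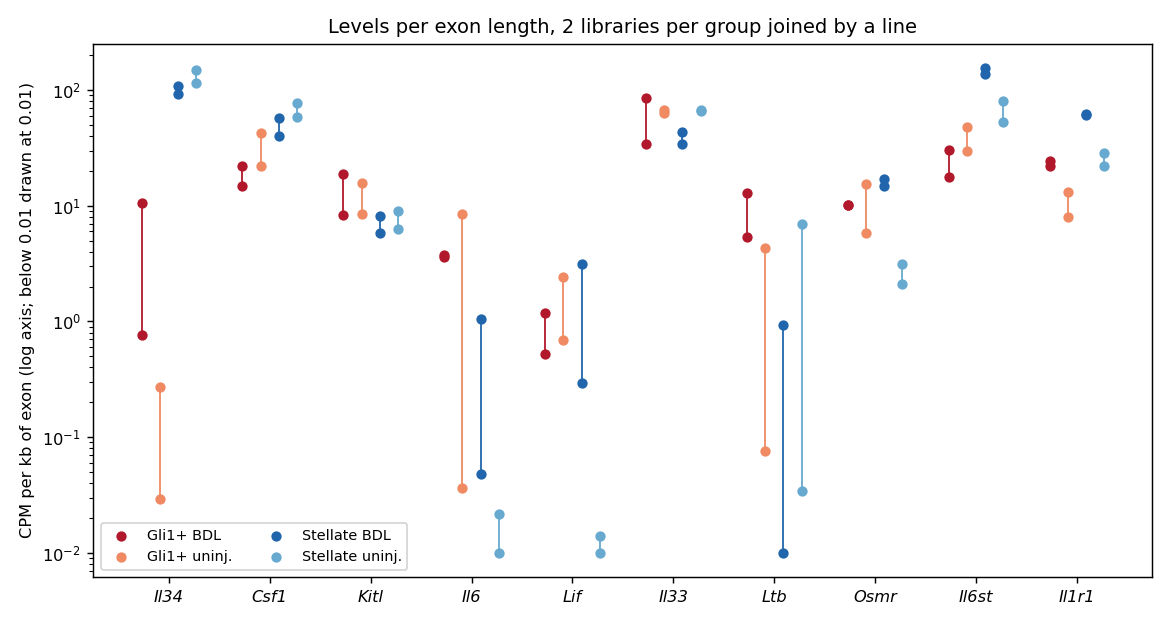
Levels of the 10 members in CPM per kb of merged exon length on a log axis, each point 1 library and each line joining the 2 libraries of a group. Il34 lies between 91.9 and 148 CPM per kb in the 4 stellate libraries and at no more than 10.7 in the 4 Gli1+ libraries, while Csf1 lies between 14.9 and 77.2 in all 8.

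Kitl (ENSMUSG00000019966.17, chr10:100015630-100100416, plus strand), the ligand of the receptor KIT on blood progenitors and mast cells, varied little. It was read at 110 and 49.3 CPM in Gli1+ cells after BDL and at 93.0 and 49.8 CPM in uninjured Gli1+ cells. Stellate cells had 34.6 and 47.9 CPM after BDL and 52.9 and 37.5 CPM in uninjured liver. The populations did not overlap after BDL and overlapped in uninjured liver, with log2 fold changes of Gli1+ against stellate cells of 0.84 ± 0.51 and 0.60 ± 0.51 (SE; limma adjusted p = 0.443 and 0.525). In each Gli1+ group replicate 1 stood well above replicate 2.

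**Figure D2:**
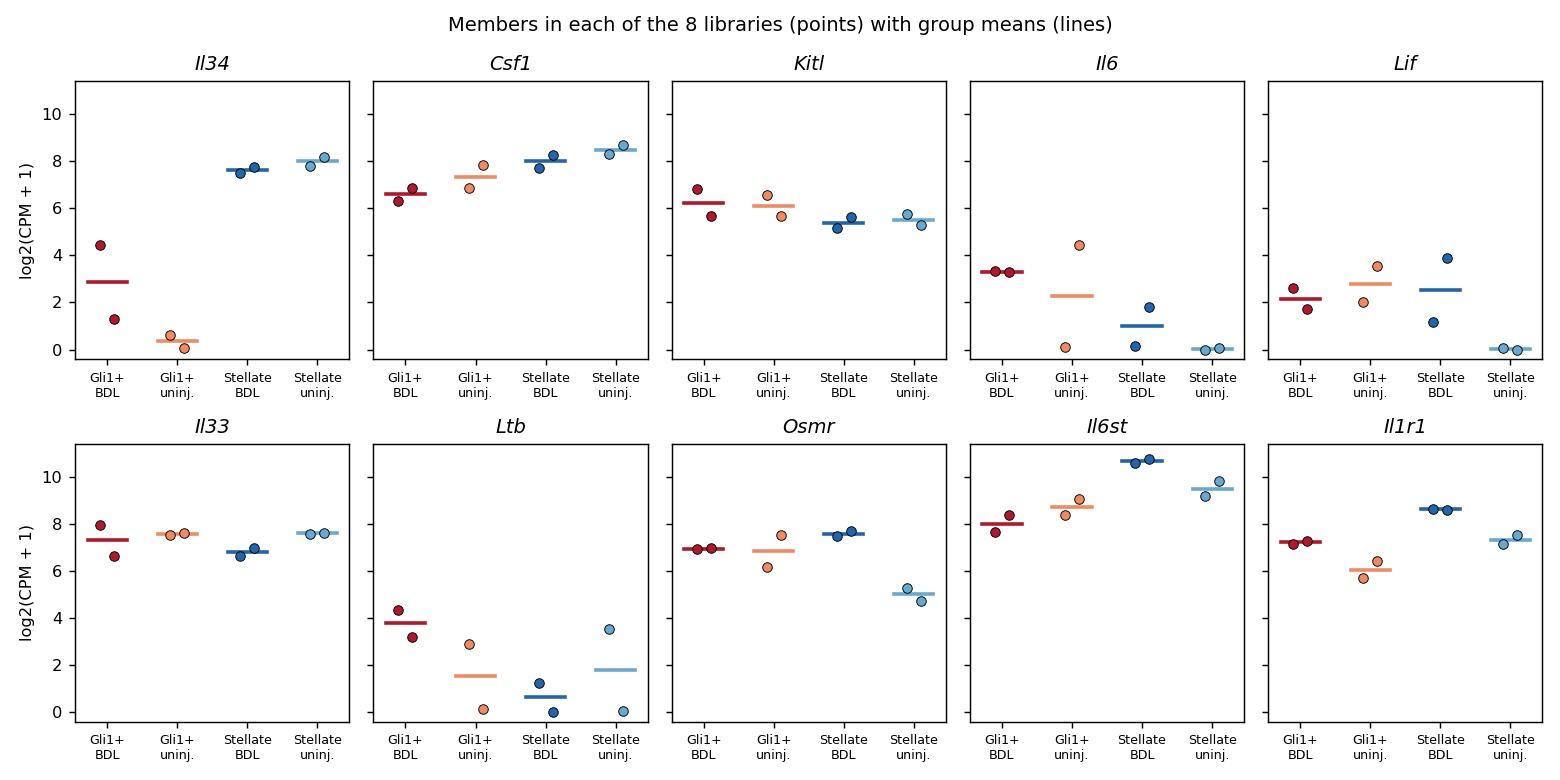
Each member in the 8 libraries (points) with the group mean (line), on the log2(CPM + 1) scale, the 2 Gli1+ groups left of the 2 stellate groups and BDL left of uninjured. Il34, Il6st and Il1r1 are higher in stellate cells after BDL with no overlap of libraries, and Il33 lies between 98.7 and 246 CPM in all 8 libraries.

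Among the interleukins, Il6 and Lif were read at low levels and unevenly between replicates. Il6 (ENSMUSG00000025746.11, chr5:30013114-30019981, plus strand), an inducer of the acute phase response of hepatocytes, was read at 9.19 and 8.68 CPM in Gli1+ cells after BDL, against 0.117 and 2.55 CPM in stellate cells after BDL. Uninjured Gli1+ libraries had 0.0888 and 20.8 CPM, against 0 and 0.0521 CPM in uninjured stellate libraries, which together held 1 read. Both comparisons of populations were without overlap, but within the uninjured Gli1+ group the replicates were further apart than the groups were after BDL. Uninjured Gli1+ replicate 1 and uninjured stellate replicate 2 held 1 read each, so that their order came from the library totals alone. With reads pooled over the libraries of a group and divided by their pooled totals, uninjured Gli1+ cells had 451 times the level of uninjured stellate cells (exact 95% interval 80.4 to 17842, counting error only). The log2 fold changes were 2.25 ± 1.29 in uninjured liver and 2.32 ± 1.29 after BDL (SE; limma adjusted p = 0.344 and 0.393). Without uninjured Gli1+ replicate 1, which had 1 read, the uninjured comparison passed (limma adjusted p = 0.0427). With all libraries DESeq2 called it (adjusted p = 0.00696), and edgeR did not (0.158).

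The mesothelial markers also differed between the uninjured Gli1+ replicates, with sums of 4913 CPM in replicate 1 and 12403 CPM in replicate 2, and Il6 was read at 0.0888 and 20.8 CPM in the same order. The macrophage sums went the other way, with 4333 and 2259 CPM. Their part in the Il6 values was not tested.

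Lif (ENSMUSG00000034394.14, chr11:4257557-4272514, plus strand), leukemia inhibitory factor, was read at 3.02 and 10.6 CPM in uninjured Gli1+ cells, against 0.0612 and 0 CPM in uninjured stellate cells, 1 read in all. After BDL it was read at 5.16 and 2.27 CPM in Gli1+ cells, against 1.28 and 13.7 CPM in stellate cells, so that the populations overlapped. In stellate cells the BDL libraries stood above the uninjured ones without overlap, at 225 times their level in pooled reads (exact 95% interval 39.9 to 8934, counting error only). The limma fold changes did not pass: 2.73 ± 1.03 for Gli1+ against stellate cells in uninjured liver and 2.49 ± 1.03 for BDL against uninjured stellate cells (log2, SE; adjusted p = 0.141 and 0.376). DESeq2 called both (adjusted p = 0.00261 and 0.00622), and edgeR called neither (0.0929 and 0.252).

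Il33 (ENSMUSG00000024810.16, chr19:29925114-29960718, plus strand), an alarmin kept in the nucleus and released from damaged cells, was near the same level in both populations of uninjured liver. It was read at 182 and 193 CPM in Gli1+ cells and at 191 and 195 CPM in stellate cells, with a log2 fold change of -0.04 ± 0.42 (SE; 95% interval -1.01 to 0.92; limma adjusted p = 0.986). After BDL it was read at 246 and 98.7 CPM in Gli1+ cells, against 99.5 and 124 CPM in stellate cells. The 2 stellate libraries after BDL lay below both uninjured ones, with a log2 fold change of -0.79 ± 0.42 (SE; limma adjusted p = 0.518). Transcripts of its receptor ST2 (Il1rl1) were read at no more than 0.0849 CPM in the 4 stellate libraries and at 0.355 CPM or more in the 4 Gli1+ libraries.

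Ltb (ENSMUSG00000024399.5, chr17:35194439-35196320, plus strand), lymphotoxin beta, is a membrane ligand known mainly from lymphocytes. It was read at 19.4 and 8.14 CPM in Gli1+ cells after BDL, against 1.40 and 0 CPM in stellate cells after BDL. Uninjured libraries were split within both groups, with 6.57 and 0.114 CPM in Gli1+ cells, against 10.5 and 0.0521 CPM in stellate replicates 1 and 2. The groups after BDL did not overlap and the uninjured groups did. The log2 fold changes of Gli1+ against stellate cells were 3.14 ± 1.33 after BDL and -0.26 ± 1.33 in uninjured liver (SE; limma adjusted p = 0.237 and 0.951).

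Markers of immune cells were split in the uninjured replicates in the same order as Ltb. The lymphocyte markers, 17 of 18 of which were listed, summed to 21.3 and 2.11 CPM in uninjured Gli1+ replicates 1 and 2 and to 61.6 and 0.209 CPM in uninjured stellate replicates 1 and 2. Macrophage sums were 4333 and 2259 CPM in the Gli1+ pair of libraries and 13706 and 82.6 CPM in the stellate pair. This order was not particular to immune cells. Hepatocyte, cholangiocyte and portal fibroblast sums had it in both pairs, endothelial and stellate sums in the Gli1+ pair only, and mesothelial sums in neither. In the stellate pair the endothelial sums, 2548 and 2554 CPM, were mostly the marker Eng, at 1570 and 2312 CPM. After BDL lymphocyte sums were 7.98 and 14.6 CPM in Gli1+ cells, against 4.73 and 10.02 CPM in stellate libraries, and 7 to 11 of the 17 genes were at 0 in each. Within each population after BDL the replicates were thus in the reverse order of Ltb. In uninjured stellate replicate 2, 16 of the 17 were at 0. Cholangiocyte markers were also higher in Gli1+ libraries after BDL, with sums of 19834 and 9395 CPM, against 224 and 832 CPM in stellate libraries. Their part in the Ltb values was not tested.

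**Figure D3:**
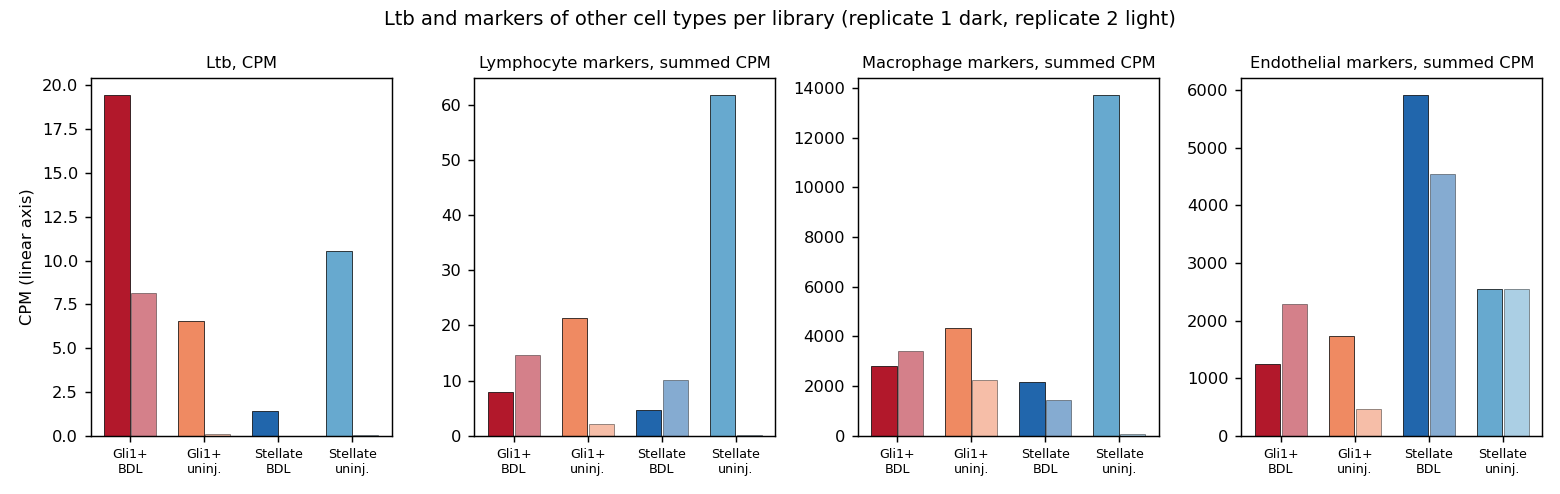
CPM of Ltb and summed CPM of lymphocyte, macrophage and endothelial marker lists per library on linear axes that start at 0, replicate 1 dark and replicate 2 light. In uninjured liver replicate 1 exceeds replicate 2 for Ltb, lymphocyte and macrophage markers in both populations, and endothelial sums are highest in the stellate libraries after BDL, at 5907 and 4539 CPM.

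The receptors were read at 25.7 CPM or more in every library. Il6st (ENSMUSG00000021756.12, chr13:112464070-112510086, plus strand), the shared chain gp130, was read at 198 and 335 CPM in Gli1+ cells after BDL, against 1527 and 1715 CPM in stellate cells after BDL. In uninjured liver it was read at 332 and 533 CPM in Gli1+ cells, against 583 and 889 CPM in stellate cells. Stellate libraries stood above Gli1+ libraries in both conditions. The log2 fold change was -2.65 ± 0.39 after BDL and -0.77 ± 0.39 in uninjured liver (SE; limma adjusted p = 0.00625 and 0.280). The first passed with edgeR too (adjusted p = 0.0247), but not without Gli1+ BDL replicate 1 (limma adjusted p = 0.0758), stellate BDL replicate 1 (0.0713) or stellate BDL replicate 2 (0.0725).

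Osmr (ENSMUSG00000022146.12, chr15:6813577-6874969, minus strand), the chain that pairs with gp130 to bind oncostatin M, was lowest in uninjured stellate cells. It was read at 70.3 and 185 CPM in uninjured Gli1+ cells, against 38.2 and 25.7 CPM in uninjured stellate cells. After BDL it was read at 122 and 123 CPM in Gli1+ cells, against 178 and 206 CPM in stellate cells. The order of the populations thus differed between conditions, without overlap in either. Osmr was higher in Gli1+ cells of uninjured liver, with a log2 fold change of 1.83 ± 0.47, and after BDL the difference of -0.64 ± 0.47 did not pass (SE; limma adjusted p = 0.0391 and 0.548). DESeq2 called the uninjured difference (adjusted p = 0.00858), as limma did with all libraries. The uninjured call was lost after TMM scaling (limma adjusted p = 0.073), with edgeR (0.0721) and without any 1 of 6 libraries: uninjured Gli1+ replicate 2, uninjured stellate replicate 2 and each of the 4 BDL libraries (0.0767 to 0.144).

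Il1r1 (ENSMUSG00000026072.12, chr1:40225080-40317257, plus strand), the signalling receptor of IL-1, was lower in Gli1+ cells in both conditions. It was read at 139 and 155 CPM in Gli1+ cells after BDL, against 398 and 387 CPM in stellate cells after BDL. Uninjured Gli1+ cells had 51.1 and 84.0 CPM, against 140 and 181 CPM in uninjured stellate cells. The log2 fold changes were -1.41 ± 0.34 after BDL and -1.27 ± 0.34 in uninjured liver (SE; limma adjusted p = 0.0408 and 0.0447), both close to the threshold. With edgeR neither passed (adjusted p = 0.0751 and 0.0602), and with DESeq2 both did (adjusted p = 0.00564 and 0.0058). After BDL the call was lost without any 1 of the 4 BDL libraries (limma adjusted p = 0.154 to 0.246). In uninjured liver it was lost without any 1 of the 4 BDL libraries (0.0747 to 0.0927), without replicate 1 of uninjured Gli1+ cells (0.186) and without replicate 2 of uninjured stellate cells (0.119).

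In all, 3 of the 10 members passed in uninjured liver, 1 higher (Osmr) and 2 lower (Il34, Il1r1) in Gli1+ cells. Among all 16446 genes tested, 11.1% passed, 8.06% higher and 3.02% lower. After BDL 3 members passed, all lower in Gli1+ cells (Il34, Il6st, Il1r1), against 6.8% of all genes, 4.44% higher and 2.36% lower. Libraries did not overlap for 7 members in uninjured liver, 3 higher and 4 lower in Gli1+ cells, against 45.7% of all genes, 31.1% higher and 14.6% lower. Il6 was among the 3 higher by library totals alone, with 1 read in the closest library of each population. After BDL they did not overlap for 8 members, 3 higher and 5 lower, against 53.9% of all genes, 34.8% higher and 19% lower. The median log2 fold change of the members was -0.15 and -0.50 in these comparisons, against 0.32 and 0.23 over all genes. After TMM scaling the medians over all genes were 0.12 and 0.09, so that the fold changes are to be read relative to them.

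**Figure D4:**
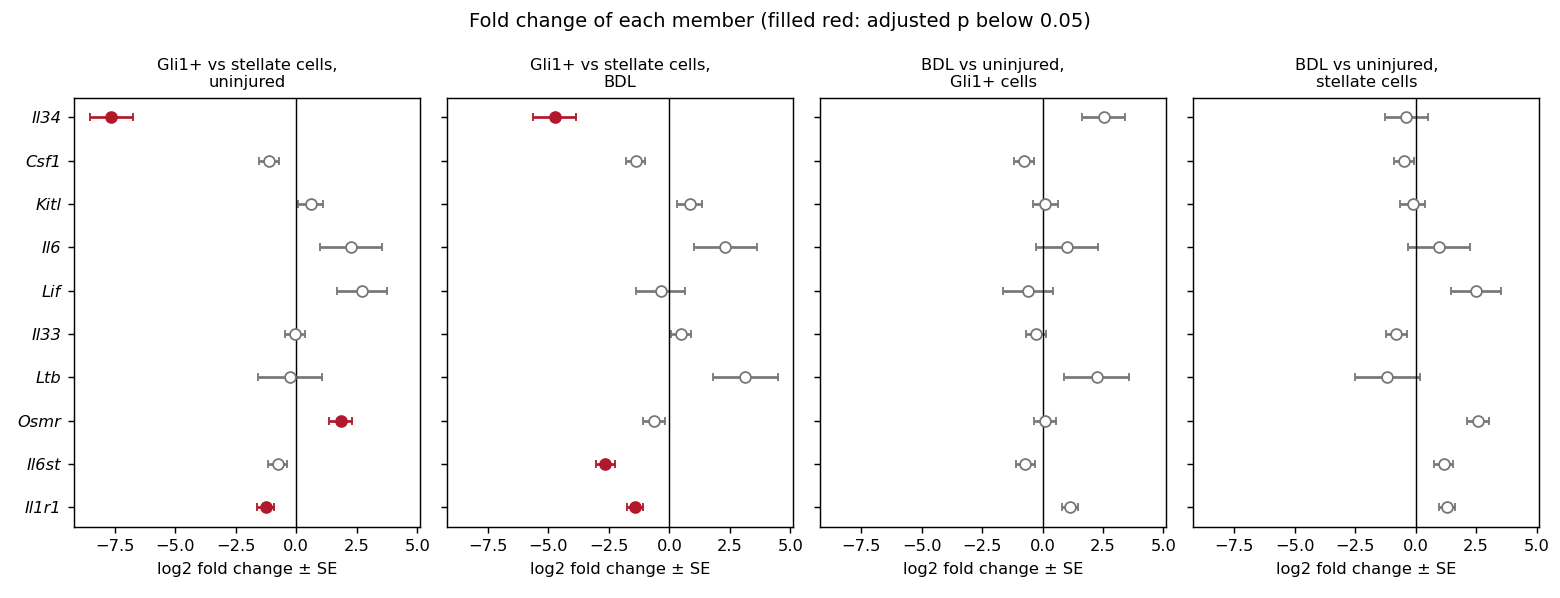
Log2 fold change of each member with its SE in the 4 comparisons of groups, Gli1+ against stellate cells on the left and BDL against uninjured on the right. Filled red points passed the adjusted threshold of 0.05, 3 in each comparison of populations and 0 in each comparison of BDL with uninjured cells.

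BDL was then set against uninjured liver within each population. No member passed the test in either. In Gli1+ cells 0 of 10 members and 0 of 16446 genes passed by limma (0% of all genes), with 2 members (Il34, Il1r1) and 1812 genes at an unadjusted p under 0.05. By edgeR 0 genes passed, and by DESeq2 412 genes and 1 member, Il34. In stellate cells 0 of 10 members passed by limma and edgeR, against 0.225% of all genes by limma, 37 in number and all higher after BDL. At an unadjusted p under 0.05 limma gave 4 members (Osmr, Il1r1, Il6st, Lif) and 1968 of the 16446 genes. With adjustment DESeq2 called 2 members, Osmr and Lif, and 1023 of the 16446 genes. Libraries did not overlap for 4 members in Gli1+ cells, 3 higher (Il34, Ltb, Il1r1) and 1 lower (Csf1) after BDL, against 41.3% of all genes, 25.1% higher and 16.2% lower. In stellate cells they did not overlap for 8 members, 5 higher (Osmr, Il1r1, Il6st, Lif, Il6) and 3 lower (Il34, Csf1, Il33), against 39.6% of all genes, 27.4% higher and 12.2% lower. For Il6 this order rested on 2 reads in stellate BDL replicate 1, against 0 and 1 read in the uninjured stellate libraries. The median log2 fold change of the members was 0.11 in Gli1+ and 0.41 in stellate cells, against 0.12 and 0.19 over all genes.

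In stellate cells Osmr had the lowest limma p-value of the members, at 192 ± 20.3 CPM after BDL and 31.9 ± 8.85 CPM in uninjured liver (SD, n = 2), a 6.02-fold ratio of means. Its log2 fold change was 2.58 ± 0.47 (SE; 95% interval 1.51 to 3.64; limma adjusted p = 0.0958). It passed without uninjured stellate replicate 1, the library with the highest macrophage sum (limma adjusted p = 0.0487), and with DESeq2 (adjusted p = 0.000638). In Gli1+ cells Osmr averaged 123 ± 0.886 CPM after BDL and 128 ± 81.2 CPM in uninjured liver. Il1r1 had higher values after BDL in both populations without overlap, 147 ± 10.9 against 67.6 ± 23.2 CPM in Gli1+ cells and 393 ± 8.19 against 161 ± 29.1 CPM in stellate cells. The log2 fold changes were 1.15 ± 0.34 and 1.29 ± 0.34 (SE; limma adjusted p = 0.205 and 0.180). Il6st averaged 1621 ± 133 CPM after BDL and 736 ± 216 CPM in uninjured stellate cells, without overlap, and 266 ± 96.6 against 433 ± 142 CPM in Gli1+ cells, with overlap. In stellate cells its log2 fold change was 1.17 ± 0.39 (SE; limma adjusted p = 0.275). Il34 averaged 11.2 ± 13.7 CPM in Gli1+ cells after BDL and 0.295 ± 0.336 CPM in uninjured Gli1+ cells, a log2 fold change of 2.54 ± 0.89 (SE; limma adjusted p = 0.304). DESeq2 called it (adjusted p = 0.000271) and edgeR did not (0.352).

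RNA of other cells was also higher in the stellate libraries after BDL. The 18 endothelial markers summed to 5907 and 4539 CPM after BDL, against 2548 and 2554 CPM in uninjured stellate libraries. Of the 18, 16 were higher after BDL without overlap (27.4% of all genes were). Eng overlapped, and alone it gave 1811 and 1533 CPM after BDL and 1570 and 2312 CPM of the uninjured sums. Eng was at no more than 285 CPM in Gli1+ libraries and passed by limma as lower there in both conditions. The endothelial sums of stellate libraries thus cannot be read as RNA of other cells alone. The 20 hepatocyte markers summed to 2408 and 2672 CPM after BDL, against 359 and 252 CPM in uninjured stellate libraries. Hepatocyte sums of Gli1+ libraries were 4032 and 23351 CPM after BDL, against 1608 and 377 CPM in uninjured libraries, and 17 of 20 were higher without overlap (25.1% of all genes were). The 18 portal fibroblast markers summed to 6574 and 5311 CPM after BDL, against 15712 and 10993 CPM in uninjured Gli1+ libraries, and 11 were lower without overlap (16.2% of all genes were). Of the 12 mesothelial markers 7 were lower without overlap after BDL, with sums of 5342 and 3711 CPM, against 4913 and 12403 CPM in uninjured Gli1+ libraries. The part of these markers in the BDL values of the members was not tested.

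The BDL responses of the populations were compared with an interaction term. By limma 0 of 10 members passed, against 0.0122% of all genes. At an unadjusted p under 0.05 limma gave 3 members (Osmr, Il6st, Il34) and 1230 of the 16446 genes. The difference of responses, Gli1+ minus stellate cells, was -2.47 ± 0.66 for Osmr, -1.87 ± 0.55 for Il6st and 2.92 ± 1.26 for Il34 (log2, SE; limma adjusted p = 0.421, 0.454 and 0.658). By edgeR 0 members and 11 of the 16446 genes passed. DESeq2 called 3 members, Il34, Lif and Osmr (adjusted p = 0.00676, 0.0372 and 0.0443), and 389 of the 16446 genes.

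The other genes of these pathways were counted from lists, to be read against the 11.1% and 6.8% of all genes called and their median log2 fold changes of 0.32 and 0.23. Of the other ligands and receptors of the IL-6 family, 10 of 14 were tested, and in uninjured liver 0 were higher and 1 was lower in Gli1+ cells, with 1 and 1 after BDL. Their median log2 fold change was 0 in uninjured liver and 0.60 after BDL. The lower gene was Lifr, the LIF receptor that pairs with gp130. It was read at 85.0 and 70.3 CPM in uninjured Gli1+ cells, against 666 and 1234 CPM in uninjured stellate cells, and at 79.0 and 176 CPM in Gli1+ against 1236 and 888 CPM in stellate cells after BDL. Its log2 fold changes were -3.54 ± 0.46 and -3.14 ± 0.46 (SE; limma adjusted p = 0.0022 and 0.006). The second did not pass without Gli1+ BDL replicate 1 (limma adjusted p = 0.0678) or stellate BDL replicate 1 (0.0817). The higher gene after BDL was Clcf1, a ligand that acts through the CNTF receptor and gp130, at 32.7 and 39.1 CPM in Gli1+ against 0.175 and 2.21 CPM in stellate cells (limma adjusted p = 0.0397, but 0.0567 after TMM scaling and 0.320 with edgeR). It did not pass without any 1 of 6 libraries, the uninjured Gli1+ and all BDL ones (limma adjusted p = 0.0614 to 0.269). Oncostatin M itself, Osm, was at 2.98 and 1.02 CPM in the Gli1+ libraries after BDL and at 0 in the other 6 libraries.

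Of 15 JAK and STAT3 signalling genes, all tested, 1 was higher in uninjured Gli1+ cells, and 0 were called after BDL by limma. Their median log2 fold change was 0.64 in uninjured liver and -0.37 after BDL. Bcl3, a nuclear partner of NF-kB, was higher at 58.5 and 75.7 CPM, against 7.83 and 20.6 CPM in stellate cells (log2 fold change 2.29 ± 0.56, SE; limma adjusted p = 0.0347). This call was lost after TMM scaling (limma adjusted p = 0.0628), with edgeR (0.108) and without any library other than uninjured stellate replicate 2 (0.0527 to 0.144).

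Of the IL-1 family, 16 of 18 genes were tested, with 1 higher and 0 lower in uninjured Gli1+ cells and 2 and 0 after BDL. Their median log2 fold change was 0.82 in uninjured liver and 0.29 after BDL. Il18r1, the receptor of IL-18, was read at 87.1 and 150 CPM in uninjured Gli1+ cells, against 0 and 0.104 CPM in uninjured stellate cells. After BDL it had 45.8 and 58.8 CPM in Gli1+ against 0.117 and 0.255 CPM in stellate cells. Its log2 fold changes were 6.78 ± 0.71 and 5.48 ± 0.71 (SE; limma adjusted p = 0.00088 and 0.00365), and both passed with edgeR (0.00137 and 0.00505). Only without Gli1+ BDL replicate 1 did the second miss the threshold (limma adjusted p = 0.0563). Il1rn, the IL-1 receptor antagonist, was higher after BDL at 153 and 71.4 CPM, against 0.0584 and 3.65 CPM in stellate cells (limma adjusted p = 0.0458). It did not pass after TMM scaling (limma adjusted p = 0.0566), with edgeR (0.294) or without any 1 of 6 libraries, the uninjured Gli1+ and all BDL ones (0.0527 to 0.298).

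Of the colony-stimulating factors and receptors, 14 of 18 were tested, with 1 higher and 0 lower in uninjured Gli1+ cells and 0 and 0 after BDL by limma. Their median log2 fold change was 0.09 in uninjured liver and 0.63 after BDL. The higher gene was Sdc1, a heparan sulfate proteoglycan of epithelia that can bind IL-34, at 71.9 and 55.3 CPM in Gli1+ against 0 and 10.7 CPM in stellate cells (limma adjusted p = 0.0288; edgeR 0.25). It did not pass without any 1 of 6 libraries, the uninjured Gli1+ and all BDL ones (limma adjusted p = 0.0538 to 0.156). Markers of cholangiocytes and mesothelium, which are epithelial, were higher in the same libraries, and their part in the values of Sdc1, Il18r1, Clcf1 and Il1rn was not tested. Csf1r passed as higher in Gli1+ cells without uninjured stellate replicate 1 and as lower without uninjured stellate replicate 2. Of 20 lymphotoxin, TNF and NF-kB genes, 16 were tested, with 0 called in uninjured liver by limma and 1 lower after BDL. Their median log2 fold change was 0.01 in uninjured liver and -0.57 after BDL. That gene was Tnfrsf11b, osteoprotegerin, a decoy receptor of the TNF family, at 110 and 69.5 CPM in Gli1+ against 755 and 1174 CPM in stellate cells. Its log2 fold change was -3.41 ± 0.64 (SE; limma adjusted p = 0.0163; edgeR 0.0443), and it did not pass without any 1 of the 4 BDL libraries (0.0971 to 0.142). Neither BDL response nor their difference had a called gene in these 5 lists by limma.

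Genes with the most similar pattern were found by the root-mean-square difference between log2(CPM + 1) profiles over the 8 libraries, each centred on its own mean, among 10290 genes of at least 10 CPM on average. For Il34 they were Reln, at a difference of 0.87 log2 units, and Lama1, at 0.99, where the Il34 profile itself varied by 3.33. Reln was read at 23.4 to 83.2 CPM in Gli1+ cells, against 3527 to 3788 CPM in stellate libraries. Csf1 was closest to Irf1 (0.21) and Arhgef17 (0.26), Il6st to Mbd1 (0.34) and C1qtnf1 (0.34), Il1r1 to Ephb4 (0.28) and Col4a2 (0.31), and Osmr to Ier3 (0.28) and Nup153 (0.29). Il6 was closest to Abcb1b (0.69) and Ptgs2 (0.73), Lif to Hps1 (0.51) and Ccl7 (0.57), and Ltb to Napsa (0.63) and Tm7sf2 (0.67). Kitl and Il33 varied by only 0.54 and 0.46 log2 units, and 1005 and 1096 genes lay within 0.5 of them, with Tmem41b (0.20) and Kdsr (0.22) closest to Kitl and Eri1 (0.12) and Tbc1d19 (0.19) closest to Il33.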

How the data were processed

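RNA of sorted mouse liver mesenchyme was sequenced as 8 libraries prepared by SMART-Seq2, which amplifies whole cDNA by PCR, per the labels' protocols. The values deposited by the authors were CPM, 1 column per library, named normalized counts per the file headers. FastQC, STAR 2.5.2b, featureCounts, DESeq2 and mm10 are named, without roles, per the submitters' processing notes; which annotation release and strand setting were used, and how multiply matching reads were treated, is not given in the sources used here. In each column 100% of values were whole multiples of 1 read within 0.1 read, so reads were recovered for the count tests. Since PCR copies are not independent molecules, floors and intervals hold for counting error alone.

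Of 30395 identifiers, 30214 were matched to a symbol, and coordinates and merged exon lengths were taken from GENCODE vM21 (GRCm38, which is mm10). The 16446 genes that reached 1 CPM in 2 or more libraries were fitted with limma 3.58.1 (limma-trend, R 4.3.3) on log2(CPM + 1), as 1 model with a mean for each of 4 groups, leaving 4 residual degrees of freedom. P-values were adjusted by Benjamini-Hochberg over all of these genes and called below 0.05. Fold changes on the log2(CPM + 1) scale understate changes of low genes. On simulated counts the fit recovered large changes, but limma let more unchanged genes pass than the threshold of 0.05 allows, and more than edgeR did. Calls by limma, and the shares of all genes called, are thus less strict than that threshold states. For this reason results of edgeR 4.0.16 (quasi-likelihood, TMM) and DESeq2 1.42.0 on recovered reads are given for members whose calls differ.

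The members and lists were chosen with earlier results of these data known. Named were the 10 members, up to 2 called genes per list, comparison and direction with the highest mean CPM, the 2 genes of most similar pattern per member, and Gli1 and Lrat; Csf1r, Il1rl1 and Osm, the receptors and ligand of members, were added after their values were seen. Of the symbols in the lists, 7 were not found. Some list genes are not reported here. Alternatives were a pseudocount of 0.25, no filter, TMM scaling, both count tests, the 4 libraries of a comparison alone, a replicate block and leaving out each library.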

Additional observations from a re-analysis of the deposited data

Results flagged for a closer look

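For Il34 the order of BDL and uninjured libraries was opposite in the 2 populations. Both Gli1+ libraries after BDL (20.9 and 1.5 CPM) stood above both uninjured Gli1+ libraries (0.533 and 0.0571 CPM). Both stellate libraries after BDL (180 and 213 CPM) stood below both uninjured stellate libraries (224 and 291 CPM). In stellate cells the log2 fold change was only -0.38 ± 0.89 (SE; limma adjusted p = 0.949), and 12.2% of all genes were lower there without overlap. The order of libraries alone does not show a fall in stellate cells. The difference of the BDL responses, Gli1+ minus stellate cells, was 2.92 ± 1.26 (log2, SE; 95% interval 0.05 to 5.79). It did not pass by limma (adjusted p = 0.658) or edgeR (0.401) and passed with DESeq2 (0.00676). Most of the Gli1+ value came from replicate 1; without that library the difference was 1.35 (limma adjusted p = 0.945), and it did not pass without any other library (0.494 to 1).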

How the results depend on the processing

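With 2 libraries per group the calls were few and depended on the setting. Members called by limma in uninjured liver (3) numbered 1 with no filter, 1 with edgeR, 5 with DESeq2, 0 with the 4 libraries alone, 1 with the replicate block and 1 to 3 without 1 library. After BDL (3) they numbered 1 with no filter, 1 with edgeR and 0 to 3 without 1 library. BDL against uninjured had 1 with DESeq2 in Gli1+ cells (0 to 0 without 1 library), and 2 with DESeq2 and 0 to 1 without 1 library in stellate cells. The difference of responses had 3 with DESeq2 and 0 to 0 without 1 library.

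Of all genes tested, those called in uninjured liver (1822) numbered 810 with no filter, 2996 with DESeq2, 0 with the 4 libraries alone (3020 at an unadjusted p under 0.05), and 1022 to 1808 without 1 library. The lowest counts were 1022 without uninjured Gli1+ replicate 1, and 1181 and 1180 without stellate BDL replicates 1 and 2. After BDL (1118) they numbered 621 with edgeR and 145 to 1375 without 1 library, with 145 and 351 without Gli1+ BDL replicates 1 and 2, and 176 and 224 without stellate BDL replicates 1 and 2. The Gli1+ response (0) had 127 with no filter, 412 with DESeq2 and 0 to 5 without 1 library. The stellate response (37) had 6 with no filter, 22 after TMM scaling, 62 with edgeR, 1023 with DESeq2, 0 with the 4 libraries alone (1936 at an unadjusted p under 0.05), 18 with the block and 0 to 219 without 1 library. It had 219 and 194 without uninjured stellate replicates 1 and 2, and 10 or fewer without any other library. The difference (2) had 0 with no filter, 11 with edgeR, 389 with DESeq2, 0 with the block and 0 to 33 without 1 library. It could not be fitted with 4 libraries.

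Deviations of same-numbered libraries from their group means were weakly correlated between groups (-0.112 to 0.112). The highest values were those between the populations of the same condition, 0.0786 in uninjured liver and 0.112 after BDL. Such correlations cannot show whether same-numbered libraries share an animal or a batch, which the sources used here do not give. With the replicate block Il1r1 (limma adjusted p = 0.0541) and Osmr (0.0536) in uninjured liver and Il1r1 after BDL (0.0508) did not pass, and Csf1 after BDL did (0.0440).

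The log2 fold changes below turned direction under some settings, and none of them passed under any. For Il6 the difference of responses was 0.07, and -0.10 with a pseudocount of 0.25, -0.024 after TMM scaling, -5.43 with edgeR and -5.71 with DESeq2. Its Gli1+ response was 1.03, and -0.32 with edgeR and -0.32 with DESeq2, and that of Osmr was 0.10, and -0.13 and -0.14. Without 1 library the Gli1+ response ran from -1.13 to 3.19 for Il6, -1.36 to 0.16 for Lif, -0.92 to 0.39 for Il33, -0.46 to 0.69 for Kitl and -0.59 to 0.79 for Osmr. The stellate response ran from -0.37 to 0.11 for Kitl and -2.89 to 0.56 for Ltb. Gli1+ against stellate cells ran from -1.99 to 1.46 for Ltb in uninjured liver, and from -1.71 to 0.98 for Lif and -0.17 to 1.14 for Il33 after BDL. The difference of responses ran from -2.09 to 2.23 for Il6, -0.73 to 0.21 for Csf1, -0.33 to 0.82 for Kitl, -0.13 to 1.18 for Il33 and -0.49 to 0.21 for Il1r1. The cause was not tested. Depth limits Il34 in uninjured Gli1+ cells and Il6 and Lif in uninjured stellate cells, each with 7 reads or fewer in a group.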
